A study of Mus musculus with 3 samples.

Results

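The death receptors and the proteins that assemble on them were followed as 10 genes among the 46078 in the deposited table. They were taken by symbol, and each symbol was found once. The set holds 4 receptors (Fas, Tnfrsf10b, Tnfrsf1a and Tnfrsf1b), 3 adaptors (Fadd, Tradd and Traf2), the enzymes Casp8 and Ripk1, and the inhibitor Cflar. In the annotation deposited with the table, 5 of the 6 genes assigned to the death-inducing signaling complex belong to the set.

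RNA of RAW 264.7 cells, a mouse macrophage line from an Abelson virus-induced tumour, was sequenced in 3 libraries. One library came from cells that received hydroxyurea (HU) at 0.5 mM together with gold nanocages, one from cells that received 0.5 mM HU, and one from untreated control cells. RNA was taken after 12 hours of culture, and all cells were grown in the same serum-containing medium. Per the labels' design, HU served to damage the cells and gold nanoparticles were tested for their ability to rescue them. No source used here gives the dose of the nanocages. None of the 3 libraries came from cells with nanocages alone, so a difference with nanocages in the absence of HU cannot be assessed. Each condition is 1 culture of 1 cell line, so no difference below has a replicate check and none has a p-value.

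A death receptor is a surface receptor of the tumour necrosis factor (TNF) receptor family with a death domain in its tail. Ligand binding to FAS or TRAIL receptor 2 recruits the adaptor FADD, which brings in procaspase-8 and starts apoptosis, while cFLIP, the product of Cflar, holds caspase-8 back. TNF receptor 1 first builds a membrane complex of TRADD, TRAF2 and the kinase RIPK1 that favours survival through NF-kappa-B, and RIPK1 can later turn to a death complex with FADD and caspase-8. In macrophages the TNF made by the cell itself can act on these receptors.

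The libraries held 18644333 reads with HU plus nanocages, 20057329 with HU and 14990564 in control. The 10 genes together took 7914, 8331 and 6309 of these reads in the same order of libraries, and the thinnest single value was 41 reads (Tnfrsf1b in control). Of 8 macrophage markers, 7 reached a mean of 1 FPKM (fragments scaled to exon length and library size), and Mrc1 had no reads. None of the 5 T cell, 4 B cell, 5 fibroblast, 5 granulocyte and mast cell and 4 epithelial markers reached that mean, and no such list summed to more than 0.31 FPKM in a library. In bulk RNA, fewer cells that express a gene and less RNA per cell cannot be told apart.

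RefSeq promoter windows of mm10, from 250 bases before to 50 bases after an annotated start, were matched for 8 of the 10 genes. Tnfrsf10b and Tradd had no entry. The windows of the genes that differed most between libraries are shown 5′ to 3′, with matches to 3 short motifs in capitals. These are TGANTCA (AP-1), GGGCGG (GC box, printed as CCGCCC on the other strand) and CACGTG (E-box), each searched on both strands, and no matches overlap in these windows. Fas, at chr19:34290409-34290708 on the plus strand, and Tnfrsf1b, at chr4:145246821-145247120 on the minus strand, were higher in HU than in control. Cflar, at chr1:58711241-58711540 on the plus strand, was lower.
Fas: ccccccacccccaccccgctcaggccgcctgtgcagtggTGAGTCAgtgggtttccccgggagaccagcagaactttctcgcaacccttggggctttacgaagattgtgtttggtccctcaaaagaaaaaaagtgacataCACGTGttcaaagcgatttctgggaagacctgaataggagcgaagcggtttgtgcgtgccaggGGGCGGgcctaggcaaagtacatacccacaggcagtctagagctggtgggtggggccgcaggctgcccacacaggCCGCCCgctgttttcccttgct
Tnfrsf1b: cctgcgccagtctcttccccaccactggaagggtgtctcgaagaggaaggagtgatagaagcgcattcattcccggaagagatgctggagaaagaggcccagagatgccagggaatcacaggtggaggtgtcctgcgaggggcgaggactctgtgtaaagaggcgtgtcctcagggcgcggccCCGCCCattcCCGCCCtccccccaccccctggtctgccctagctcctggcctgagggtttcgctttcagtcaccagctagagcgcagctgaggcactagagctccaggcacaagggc
Cflar: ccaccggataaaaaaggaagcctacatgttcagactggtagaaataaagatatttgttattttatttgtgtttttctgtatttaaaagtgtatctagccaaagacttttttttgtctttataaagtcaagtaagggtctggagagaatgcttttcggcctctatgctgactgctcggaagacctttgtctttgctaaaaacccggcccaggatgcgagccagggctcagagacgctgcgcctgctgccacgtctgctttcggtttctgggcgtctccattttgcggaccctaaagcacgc
The Fas window was the one window of the set with a TGANTCA match, at base -211, and the one with a CACGTG match, at base -110, counted from the annotated start. All 32851 windows of the mouse table held these motifs in 7.81% and 7.15% of cases. A GC box stood in 6 of the 9 windows of the set, in Fas, Tnfrsf1b, Fadd, Traf2 and both windows of Ripk1, beside 35.7% of all windows. The p53 half-site and the NF-kappa-B site, searched by their usual consensus, were found in none of the 9 windows, beside 8.36% and 4.51% of all. The Cflar window held none of the motifs searched and had a GC content of 45.0%, beside a median of 52.7% over all windows. The motifs were chosen after the sequences had been read, and a match or its absence describes these letters and nothing about binding.

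The first comparison set HU beside control, to ask how the RNA of this machinery differs in cells given the drug. The receptors Tnfrsf10b, Fas and Tnfrsf1b were 3.61-, 2.53- and 1.68-fold higher in HU, while Tnfrsf1a was close to its control level. Cflar was 1.47-fold lower. The 3 adaptors were within counting error, Ripk1 was slightly higher and Casp8 slightly lower. Folds here are ratios of CPM (reads scaled to the summed reads of the library). Each has an exact 95% interval that takes in the counting error of its reads and no other source of spread. "Above" or "below" counting error means that this interval excludes 1.

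By this call 4 of the 10 genes were above counting error in HU, beside 18.7% of the 10846 genes with a mean of at least 1 FPKM, and 2 were below it, beside 20.1%. At least 1.5-fold higher were 3 of the 10, beside 4.52% of all genes. None was at least 1.5-fold lower, beside 3.12%. At least 2-fold higher were 2 of the 10, beside 2.02%. The median log2 ratio of the 10 genes was 0.06, beside -0.01 over all genes, so the middle of the set lay near the middle of the transcriptome with Tnfrsf10b, Fas and Tnfrsf1b at its upper end. All 10 genes passed the limit of 1 FPKM, Tnfrsf1b with a mean of 1.12 FPKM that its control library alone, at 0.72 FPKM, would not have reached.

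**Figure D1:**
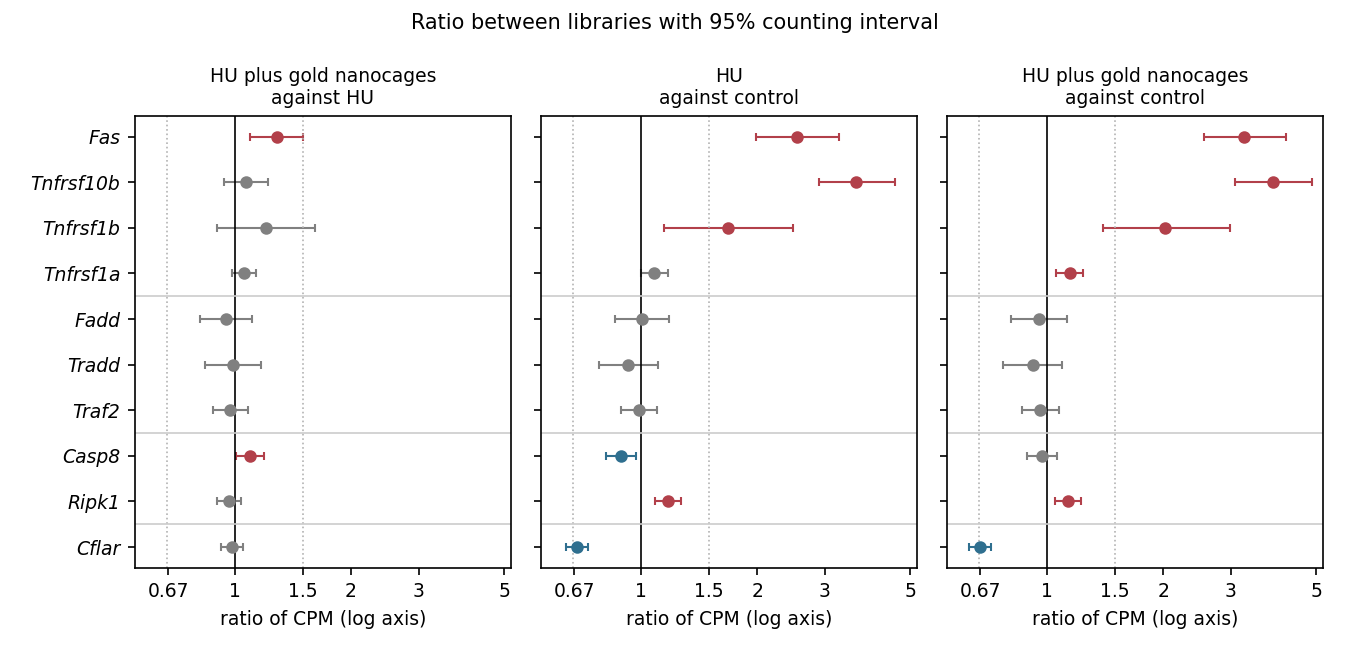
Ratio of CPM of each gene (points, log axis) with its 95% counting interval (bars) for HU plus gold nanocages against HU, HU against control, and HU plus gold nanocages against control, 1 library per group. Red points lie above and blue points below counting error, grey points within it, and dotted lines mark 1.5-fold; Fas, Tnfrsf10b and Tnfrsf1b stand to the right in both comparisons with control, Cflar to the left, and the comparison of the HU libraries keeps all points within 1.5-fold.

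Tnfrsf10b (chr14:69767472-69784411, plus strand, GENCODE M21 on mm10 as for all genes here) encodes the TRAIL receptor of the mouse that carries a death domain. It had 459 reads in HU and 95 in control, or 7.22 against 2.00 FPKM. The ratio was 3.61 (2.89 to 4.55), the 76th highest of 10846 genes. Among the genes at 1 FPKM or more in a library, 38.9% lay below Tnfrsf10b in HU and 10.4% in control, so the gene stood at the low end of the expressed range in control and nearer its middle in HU. Such a position rests on the exonic size in the deposited table.

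Fas (chr19:34290666-34327772, plus strand), the receptor of FAS ligand, had 288 reads in HU and 85 in control, or 7.97 against 3.15 FPKM. Its ratio was 2.53 (1.98 to 3.26), the 136th highest. Of the expressed genes 41.5% lay below Fas in HU and 18.2% in control. The ratio of Fas to Tnfrsf10b reads was 1.43-fold lower in HU than in control (1.01 to 2.00), a comparison into which no library scaling enters. That interval only just excludes 1. For HU plus nanocages against control the same comparison gave 0.843, with an interval (0.601 to 1.18) that includes 1. Such pairs were chosen after the values were seen.

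Tnfrsf1b (chr4:145213463-145246870, minus strand), TNF receptor 2, lacks a death domain and signals through TRAF2. It was the scarcest of the 10 genes, with 92 reads in HU and 41 in control, or 1.20 against 0.72 FPKM. Its ratio of 1.68 had a wide interval (1.15 to 2.49).

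Tnfrsf1a (chr6:125349362-125362484, plus strand), TNF receptor 1, was the most abundant of the set, with 1505 reads in HU and 1039 in control, or 29.0 against 26.8 FPKM. The ratio of 1.08 had an interval from 1.00 to 1.17 whose lower bound lay just under 1, and the call changed with the scaling: by TMM factors (trimmed mean of M values) the ratio was 1.09 (1.00 to 1.18) with its lower bound just over 1. Relative to Tnfrsf1a in the same library, Tnfrsf10b was 3.33-fold higher in HU (2.63 to 4.26), Fas 2.34-fold (1.81 to 3.05) and Tnfrsf1b 1.55-fold (1.05 to 2.32).

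The receptor RNA had another make-up in HU than in control. The 4 receptor genes summed to 45.4 FPKM in HU and 32.6 FPKM in control. Tnfrsf1a held 63.9% of this sum in HU and 82% in control, Fas 17.6% and 9.66%, Tnfrsf10b 15.9% and 6.13%, and Tnfrsf1b 2.65% and 2.21%. Fas and Tnfrsf10b together stood at 0.525 of the Tnfrsf1a level in HU and at 0.193 of it in control. These levels set genes of different length beside each other and depend on their exonic sizes, which differ from GENCODE M21 for Fas, Tnfrsf10b and Ripk1. With the GENCODE M21 sizes, Tnfrsf10b held 10.2% of the receptor sum in HU and 3.71% in control, Fas 16.8% and 8.77%, and Tnfrsf1a 70.1% and 85.2%. Tnfrsf1a thus held a smaller share in HU than in control by either size, while the size of the Tnfrsf10b share is uncertain by more than 1.5 times.

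**Figure D2:**
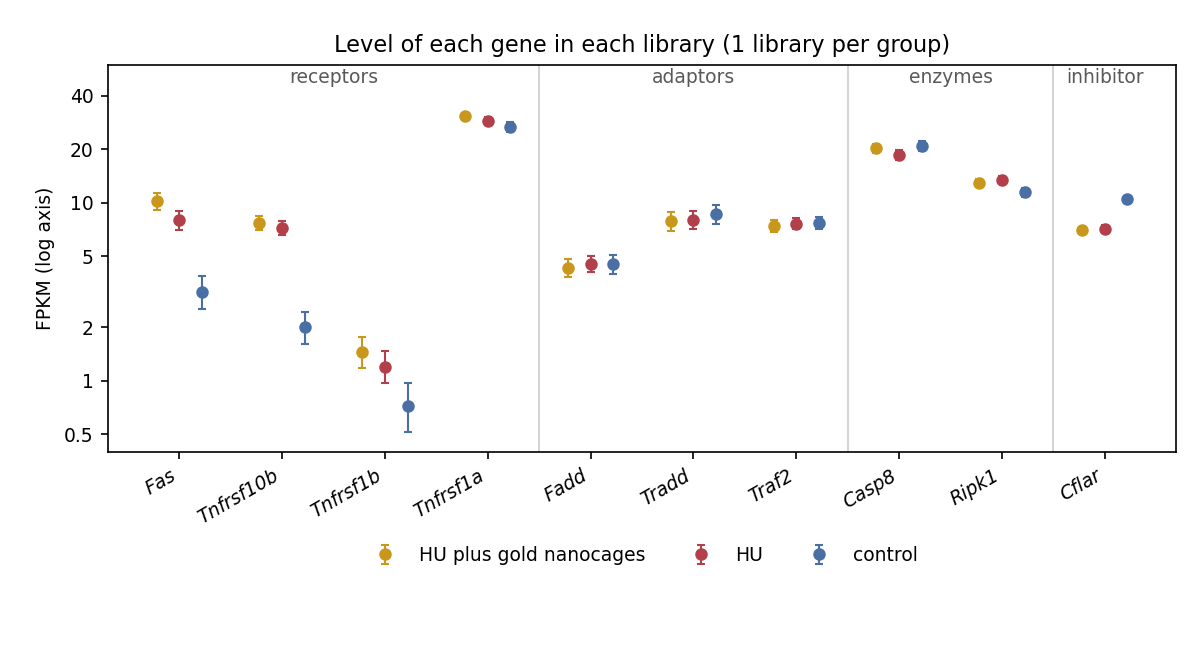
FPKM of each gene (log axis) with HU plus gold nanocages, with HU and in control, 1 library per group, with exact 95% Poisson intervals of the read count as bars. In Fas and Tnfrsf10b the control point lies well under both HU points, in Cflar it lies over them, and the adaptors sit level.

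Cflar (chr1:58711508-58758884, plus strand) encodes cFLIP, a relative of caspase-8 without protease activity that competes for FADD. It had 1811 reads in HU and 1987 in the shallower control library, or 7.13 against 10.5 FPKM. The gene was 1.47-fold lower in HU (1.38 to 1.57), the 373rd lowest of 10846 genes and just short of 1.5-fold. Counts per gene do not separate the long and short forms of cFLIP.

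Casp8 (chr1:58795374-58847503, plus strand) encodes the initiator caspase of the complex. It had 1079 reads in HU and 909 in control, or 18.6 against 20.96 FPKM, and was 1.13-fold lower (1.03 to 1.23). Cflar lies next to its relative on chromosome 1, 36489 bases upstream. In FPKM, Cflar stood at 0.383 of the Casp8 level in HU and at 0.499 in control. These levels rest on exonic sizes of 12669 bases for Cflar and 2893 for Casp8. By reads, Cflar was higher than Casp8 in each library. The ratio of Cflar to Casp8 reads was 1.30-fold lower in HU than in control (1.17 to 1.45). Both genes were thus below counting error, Cflar by more.

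Ripk1 (chr13:34002363-34037147, plus strand), the kinase that can serve survival or death downstream of TNF receptor 1, had 1662 reads in HU and 1056 in control, or 13.5 against 11.5 FPKM. It was 1.18-fold higher (1.09 to 1.27). In GENCODE M21, 241 exonic bases of Ripk1 (2.89%) overlap Serpinb6a on the other strand, and 511 (6.12%) overlap the pseudogene Gm17084 on the same strand, which had 5 reads in HU and 1 in control. Serpinb6a had 1314 reads in HU and 1093 in control, and no source used here gives the strand setting of the counting.

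The adaptors stayed within counting error. Fadd (chr7:144577318-144582463, minus strand), which links FAS and the TRAIL receptor to caspase-8, had 356 reads in HU and 265 in control, with a ratio of 1.00 (0.854 to 1.18). Tradd (chr8:105258286-105264609, minus strand), the first adaptor of TNF receptor 1, had 299 and 241 reads in HU and control, with a ratio of 0.927 (0.780 to 1.10). Traf2 (chr2:25517982-25546940, minus strand), which binds TRADD and TNF receptor 2 and recruits the cIAP ubiquitin ligases, had 780 and 591 reads in HU and control, with a ratio of 0.986 (0.885 to 1.10). The widest of these intervals, that of Tradd, reaches from 1.28-fold lower to 1.10-fold higher. Fas stood at 1.75 times the Fadd level in HU and at 0.695 of it in control, both in FPKM, or at 1.53 and 0.607 with the GENCODE M21 size of Fas.

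The order of the 10 genes by FPKM differed between the libraries in its middle, while Tnfrsf1a, Casp8 and Ripk1 led in each by the deposited exonic sizes. With nanocages Fas was 4th at 10.2 FPKM, its interval (9.16 to 11.3) lying above that of Tradd (6.99 to 8.89), which was 5th. In HU 5 genes followed the leading 3 between 7.13 and 7.99 FPKM (Tradd, Fas, Traf2, Tnfrsf10b and Cflar), and their Poisson intervals overlap. Fadd and Tnfrsf1b were 9th and 10th in HU. In control Cflar was 4th at 10.5 FPKM, and Fas and Tnfrsf10b were 8th and 9th. Cflar, with an exonic size of 12669 bases, had the most reads of the 10 genes in each library. With the GENCODE M21 sizes, Fas was at 8.92 FPKM with nanocages, 6.96 FPKM in HU and 2.75 FPKM in control. It was still 4th with nanocages, but its interval (7.999 to 9.91) overlapped that of Tradd. Tnfrsf10b was at 4.48, 4.20 and 1.16 FPKM in the same order of libraries, and in HU it left the group of 5 for the 9th place. Ripk1 was at 9.57, 9.93 and 8.44 FPKM, and in control it was 5th, behind Cflar and Tradd. Ratios between libraries do not change with the size.

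**Figure D3:**
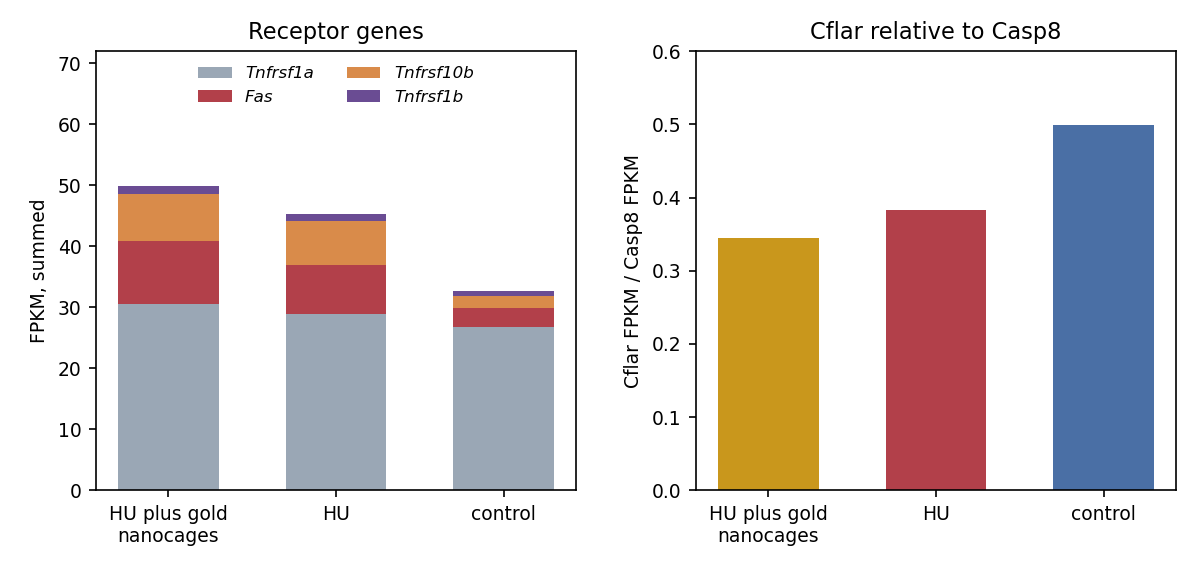
Left, stacked FPKM of the 4 receptor genes; right, FPKM of Cflar divided by that of Casp8; each for HU plus gold nanocages, HU and control, 1 library each and therefore no error bars, by the deposited exonic sizes. The receptor sums are 49.98, 45.4 and 32.6 FPKM and the Cflar to Casp8 ratios 0.345, 0.383 and 0.499, from left to right.

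HU plus gold nanocages against HU asked what the nanocages add. The 10 genes lay close together in these libraries, and none was 1.5-fold apart, beside 1.36% of all genes at least 1.5-fold higher and 1.32% at least 1.5-fold lower. None was 2-fold apart, beside 0.562% at least 2-fold higher and 0.664% at least 2-fold lower. Fas and Casp8 were above counting error, 2 of 10 beside 8.35% of all genes, and none of the set was below, beside 7.78%. The median log2 ratio was 0.03, beside 0.00 over all genes.

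Fas had 343 reads with nanocages and 288 with HU alone, or 10.2 against 7.97 FPKM. It was 1.28-fold higher (1.09 to 1.504), the 334th highest of 10846 genes, and its interval excluded 1 at the 99% level too. Relative to Tnfrsf1a the difference was 1.21-fold (1.02 to 1.45). Relative to Tnfrsf10b it was 1.20-fold with an interval (0.975 to 1.48) that includes 1, so a step of Fas apart from Tnfrsf10b was not detectable at this depth.

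The other receptors were within counting error. Tnfrsf10b had 455 reads with nanocages and 459 with HU (1.07-fold, 0.935 to 1.22), Tnfrsf1a 1479 and 1505 (1.06-fold, 0.983 to 1.137) and Tnfrsf1b 103 and 92 (1.20-fold, 0.900 to 1.61). The ratios of all 4 receptors were over 1, and their FPKM summed to 49.98 with nanocages and 45.4 with HU.

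Casp8 had 1096 reads with nanocages and 1079 with HU, or 20.3 against 18.6 FPKM. Its ratio was 1.09 (1.00 to 1.19), and with a 99% interval it included 1 (0.978 to 1.22). Cflar had 1655 and 1811 reads with nanocages and HU (0.983-fold, 0.919 to 1.05), and Ripk1 1489 and 1662 (0.964-fold, 0.898 to 1.03). Among the adaptors, Fadd, Tradd and Traf2 had ratios of 0.949, 0.989 and 0.972 with intervals that include 1. In FPKM, and so by the exonic sizes, Cflar stood at 0.345 of the Casp8 level with nanocages and at 0.383 with HU. The ratio of their reads was 1.11-fold lower with nanocages, and its interval (0.997 to 1.24) includes 1.

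HU plus gold nanocages against control shares a library with each comparison above, so its values are given beside them and not as further support. Tnfrsf10b was 3.85-fold higher than in control (3.08 to 4.86), Fas 3.24-fold (2.55 to 4.16) and Tnfrsf1b 2.02-fold (1.39 to 2.98). Tnfrsf1a was 1.145-fold higher (1.06 to 1.24) and Ripk1 1.13-fold (1.05 to 1.23). Cflar was 1.49-fold lower (1.40 to 1.59). Casp8, at 20.3 against 20.96 FPKM, was within counting error (0.969-fold, 0.887 to 1.06), as were the 3 adaptors. In all 5 of 10 were above and 1 below counting error, beside 19.6% and 20.1% of all genes, and 3 were at least 1.5-fold higher, beside 5.28%. The same 3 were at least 2-fold higher, beside 2.08%, and none was at least 1.5-fold lower, beside 3.25%. The median log2 ratio was 0.07, beside 0.00 over all genes.

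**Figure D4:**
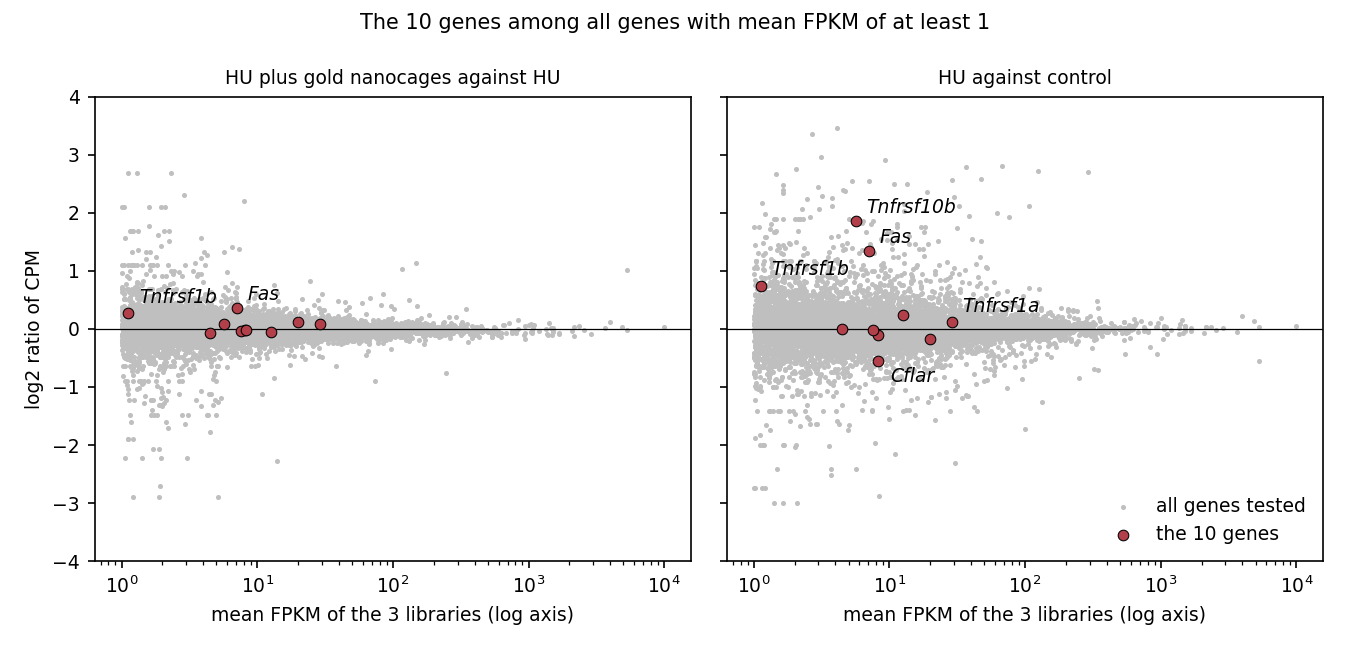
Log2 ratio of CPM against mean FPKM of the 3 libraries (log axis) for the 10846 genes that reach a mean of 1 FPKM (grey) and the 10 genes (red), for HU plus gold nanocages against HU (left) and HU against control (right); 18 and 32 genes with a ratio outside the axis or without reads in a library are not drawn. Tnfrsf10b and Fas lie near the upper edge of the cloud in HU against control, and all 10 genes lie near 0 in HU plus gold nanocages against HU.

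Genes with the most similar pattern were sought for the 3 genes that differ from control in opposite directions, among 7223 protein-coding genes with mean FPKM of at least 5. Likeness was the distance in the log2 ratios of HU and of HU plus nanocages to control, which rests on 3 libraries. Nearest to Tnfrsf10b were Kank3 (distance 0.07), Baiap2 (0.07) and Gtse1 (0.08), and 10 genes lay within 0.2. Kank3 had 516 reads with nanocages, 500 with HU and 103 in control. Nearest to Fas were Zmat3 (0.20), Cebpa (0.21) and Rnf169 (0.21), with no gene within 0.2. Cflar had 117 genes within 0.2, among them Dhx40 (0.02) and Daxx (0.03). Its log2 ratio of HU to control (-0.55) lay nearer the median of all genes (-0.01) than those of Fas (1.34) and Tnfrsf10b (1.85). The counting intervals of Fas and Tnfrsf10b are wider than this radius, so the order of their neighbours is uncertain.

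Ligand genes of the TNF family were next examined, some of them for the receptors above and some for other receptors. Of 7 ligand genes, Tnf and Ltb reached a mean of 1 FPKM. Both were below counting error in HU against control, beside 20.1% of all genes. Tnf, which encodes the ligand of both TNF receptors, was at 281.5 FPKM with nanocages, 284 FPKM with HU and 464 FPKM in control. It was 1.63-fold lower in HU than in control (1.59 to 1.68). Ltb, a subunit of lymphotoxin, was 1.31-fold lower in HU than in control (1.24 to 1.40). With nanocages, both genes were within counting error of HU, beside 8.35% of all genes above and 7.78% below. Fasl had 0 reads with nanocages, 1 with HU and 2 in control, and Tnfsf10, which encodes TRAIL, had 0, 1 and 0. Both lie under the 3 reads that a count of 0 allows, or 0.161, 0.150 and 0.2001 CPM in the same order of libraries.

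Of 10 other receptors of the TNF receptor family, among them death and decoy receptors, 5 reached a mean of 1 FPKM. In HU against control, 2 of the 5 were above counting error, beside 18.7% of all genes, and none was below, beside 20.1%. The 2 above were Tnfrsf26 (1.25-fold, 1.06 to 1.47) and Tnfrsf12a, the TWEAK receptor (1.26-fold, 1.04 to 1.52), both named after their values were seen. Tnfrsf22 and Tnfrsf23, decoy receptors for TRAIL in the mouse, had ratios of 1.04 (0.886 to 1.22) and 0.940 (0.822 to 1.08). Tnfrsf21, Edar, Ngfr and Tnfrsf11b had no reads in any library. All 5 measured genes were within counting error with nanocages against HU, beside 8.35% of all genes above and 7.78% below.

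Partners of the TNF receptor 1 complex were more often below than above in HU against control. Of 19 genes 18 were measured, with 9 below counting error (beside 20.1% of all genes), 3 above (beside 18.7%) and 6 within, and a median log2 ratio of -0.07 beside -0.01 over all genes. None was 1.5-fold apart. Birc3, which encodes the ubiquitin ligase cIAP2, was 1.30-fold lower (1.21 to 1.39), Tnfaip3, the deubiquitinase A20, 1.28-fold lower (1.18 to 1.39) and Birc2, which encodes cIAP1, 1.16-fold lower (1.04 to 1.30). The largest differences, picked after the values were seen, were in Rnf31, the catalytic subunit of the linear ubiquitin ligase, 1.44-fold lower (1.27 to 1.63), and Traf1, 1.34-fold lower (1.25 to 1.44). Rnf31 shares 123 exonic bases with Irf9 on the same strand in GENCODE M21, and Irf9 had 445 reads in HU and 647 in control. The 3 genes above were Map3k7 (1.27-fold, 1.19 to 1.35), Chuk (1.15-fold) and Rbck1 (1.15-fold). The lean was smaller in HU plus nanocages against control, with 6 of the 18 below (beside 20.1%), 5 above (beside 19.6%) and 7 within. The median log2 ratio there was -0.06, and Birc2 was within counting error (0.900-fold, 0.807 to 1.005).

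With nanocages against HU, 16 of these 18 genes were within counting error, 1 was above (beside 8.35% of all genes) and 1 below (beside 7.78%). Otulin, the deubiquitinase that removes linear ubiquitin chains, was 1.30-fold higher (1.20 to 1.40), with 1575 reads with nanocages, 1307 with HU and 928 in control. Traf1 was 1.09-fold lower (1.01 to 1.17). Both were named after their values were seen.

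**Figure D5:**
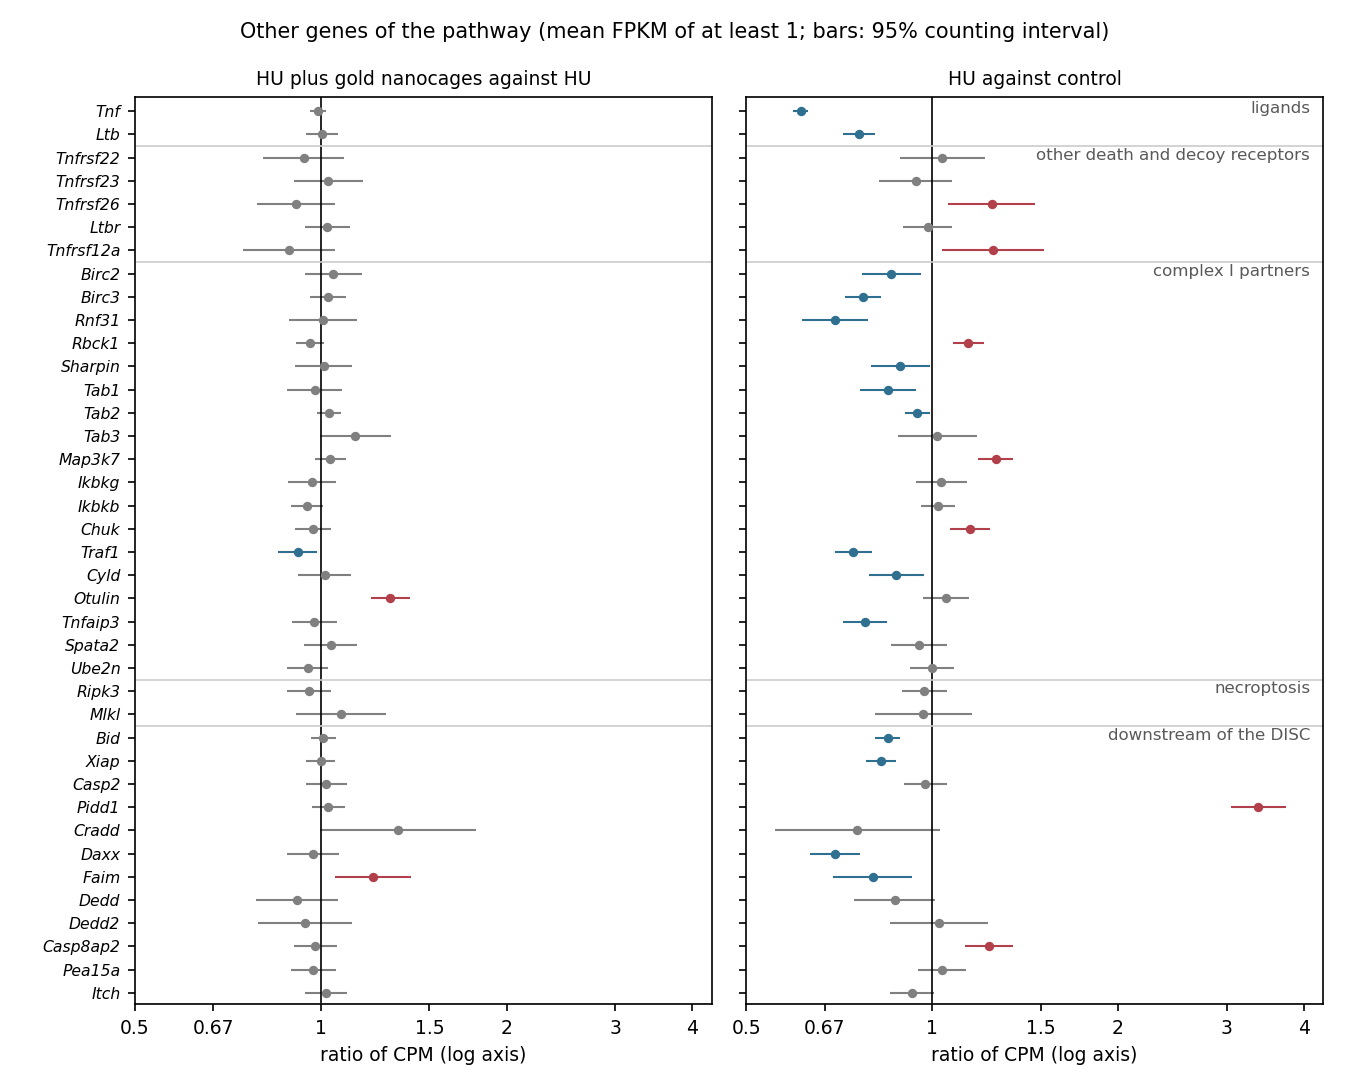
Ratio of CPM (points, log axis) with 95% counting intervals (bars) of other pathway genes with mean FPKM of at least 1, grouped by list, for HU plus gold nanocages against HU (left) and HU against control (right), 1 library per group. Some genes of the last list are not drawn. Red is above, blue below and grey within counting error; Pidd1 stands apart at 3.38 in HU against control, and most genes in the left panel are grey.

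Of a list of further regulators and effectors of cell death, 14 of 14 genes were measured. In HU against control 4 were above and 4 below counting error, beside 18.7% and 20.1% of all genes. Pidd1, which encodes the death domain protein that activates caspase-2, had 2002 reads in HU and 443 in control and was 3.38-fold higher (3.05 to 3.75). The partners of Pidd1, Casp2 and Cradd, had ratios of 0.976 (0.900 to 1.06) and 0.756 (0.556 to 1.03). Casp8ap2, whose product binds caspase-8, was also above counting error (1.23-fold, 1.13 to 1.35). Below it were Daxx, a nuclear protein first found through its binding to FAS (1.44-fold lower, 1.31 to 1.58), Faim (1.25-fold lower), the caspase inhibitor Xiap (1.21-fold lower, 1.143 to 1.28) and Bid (1.18-fold lower, 1.13 to 1.24), which carries the caspase-8 signal to mitochondria. With nanocages against HU, 2 of the 14 were above counting error, among them Faim (1.22-fold, 1.06 to 1.40), beside 8.35% of all genes, and none was below, beside 7.78%. Apart from Pidd1 and Bid, the genes of this list were named after their values were seen.

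Of the necroptosis genes, Ripk3 and Mlkl were measured, and Zbp1 had 6 reads with nanocages, 8 with HU and 2 in control. Ripk3, the kinase downstream of RIPK1, was at 30.9 FPKM with nanocages, 32.3 FPKM with HU and 33.3 FPKM in control. Mlkl, the pore-forming effector, was at 6.59, 6.10 and 6.31 FPKM in the same order. Both were within counting error in each comparison.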

How the data were processed

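Reads per gene were deposited by the authors as whole-number counts, not normalized, for 3 libraries with 1 library per group. The FPKM values deposited by the authors equal the count scaled to exonic size and to summed reads within 0.005 for 100% of genes. A further column deposited by the authors, other than these, holds each gene's exonic size in bases. HISAT2 2.0.1, HTSeq 0.6.1 and the build mm10 are named per the submitters' processing notes, and no source used here gives their roles, settings or strand.

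The 10 genes, the pathway lists and the motifs were chosen with earlier results of these data known. Each symbol was represented by its row with the most reads. Ratios are of CPM scaled by the summed count. Their exact Clopper-Pearson 95% intervals (scipy 1.17.1, Python 3.11.15) cover counting error only, since each group has 1 library. They were tested on simulated Poisson counts, which hold counting error alone. That test checks the calculation and cannot show how the intervals fare with spread between cultures. Reads carry no molecular identifiers, so repeated reads of 1 molecule could not be told apart. With 1 library per group no model was fitted and no p-value computed. The background was the 10846 genes with mean FPKM of at least 1. All 10 genes are named; of each pathway list, genes past 1.5-fold and a preset group of ligands, ubiquitin ligases and necroptosis genes. Some genes that enter the counts are not reported here by name. Coordinates are from GENCODE M21 on the same assembly, which holds 98.2% of the table's identifiers. TMM factors came from edgeR 4.0.16.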

Additional observations from a re-analysis of the deposited data

How the results depend on the processing

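No paired analysis was possible because each group has 1 library, and no library could be left out. Scaling by TMM, by median of ratios or without the 100 genes with most reads, subtraction of the gene length trend and a 99% interval gave 146 of 150 ratios of the 10 genes the same call. The exceptions were Tnfrsf1a in HU against control, above counting error by TMM, without the top genes and after the length trend, and Casp8 in HU plus nanocages against HU. With the 99% interval, 1 of the 10 genes was above counting error in that comparison in place of 2. The largest shift of any scaling was -0.0051 on the log2 scale. With a pseudocount of 1 FPKM, 2 of the 10 genes in place of 3 were at least 1.5-fold apart in both comparisons with control. Tnfrsf1b was then 1.28-fold higher in HU than in control and 1.42-fold higher in HU plus nanocages than in control. With a pseudocount of 5 FPKM, Tnfrsf10b was 1.75-fold, Fas 1.59-fold and Tnfrsf1b 1.08-fold higher in HU against control, as a pseudocount shrinks the ratio of low genes. No ratio called above or below counting error changed direction. Without the filter on FPKM, 19.0% of genes were at least 1.5-fold higher in HU against control; with a mean of at least 5 FPKM, 2.64% were. The GENCODE M21 exonic sizes, an alternative chosen after seeing the data, lower the FPKM of Fas, Tnfrsf10b and Ripk1 and leave ratios between libraries as they are. Depth limits Tnfrsf1b most, with 41 reads in control.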

Other observations

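The deposited annotation assigns 29 genes to the extrinsic apoptotic pathway via death domain receptors, of which Fas, Tnfrsf10b and Casp8 belong to the set. Of the other 26, 21 were measured. In HU against control 7 of them were above counting error (beside 18.7% of all genes) and 3 below it (beside 20.1%), with a median log2 ratio of 0.05 beside -0.01 over all genes. The highest, picked after its value was seen, was Bloc1s2, at 802 reads in HU and 421 in control (1.42-fold, 1.26 to 1.61). The pro-apoptotic BCL2 relatives Bad and Bax were 1.26-fold (1.07 to 1.49) and 1.25-fold (1.19 to 1.31) higher, also named after their values were seen. Named in the same way, Bag3 (1.17-fold, 1.07 to 1.28) and Pik3r1 (1.15-fold, 1.04 to 1.27) were above counting error too. Bcl2 itself was within it (1.05-fold, 0.830 to 1.33). In HU plus nanocages against HU, 2 of the 21 were above, among them Dapk1 (1.25-fold, 1.06 to 1.47), and 2 were below, beside 8.35% and 7.78% of all genes. The 2 below were Bax (0.932-fold, 0.892 to 0.974) and Bad (0.856-fold, 0.735 to 0.997). These 3 genes were named after their values were seen.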
